A study of Rattus norvegicus with 12 samples.

Results

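Embryonic sarcomere and myoblast fusion genes were followed in a rat pelvic floor muscle, the pubocaudalis, after simulated birth injury (SBI). The 10 genes were taken by symbol from the deposited count table, which lists 30206 genes: the sarcomere genes Myh3, Myh8, Myl4, Actc1 and Tnnt2, the fusion genes Mymk and Mymx, and the progenitor genes Cdh2, Dlk1 and Nes. Each symbol matched 1 row, and all 10 passed the filter on low counts, as did 14599 genes in all. The rule is a list of names, drawn up with earlier results of these data known.

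When a muscle is injured, its satellite cells divide, become myoblasts and fuse into new or damaged fibers. A newly formed fiber first builds its contractile apparatus from isoforms that are otherwise used in the embryo and around birth, and later replaces them with adult isoforms. Fusion itself depends on a pair of muscle-specific membrane proteins, myomaker (Mymk) and myomixer (Mymx), and a transient rise of these genes and of developmental myosin is a common marker of regeneration in skeletal muscle.

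The animals were 3-month-old female Sprague-Dawley rats that received SBI, a vaginal balloon distention, late in pregnancy. After delivery the pups were removed from the non-lactating dams and stayed with the lactating ones, and the muscle was taken 1 or 3 weeks after SBI, which gives the groups 1wk SBI and 1wk SBI + Lac at the early time and 3wk SBI and 3wk SBI + Lac at the late one. Every rat in these 12 libraries was injured, so no uninjured level is given here. Each library came from the pooled polyA RNA of 2 rats, with 3 pools per group, and n counts pools throughout.

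Total counts ran from 10082734 to 75634391 per library, and at 1 week every non-lactating library was deeper than every lactating one. Values of the 1-week libraries were whole numbers, while 26.6% to 44% of the values in each 3-week library had decimals, so comparisons between the time points mix time with the way counts were made. Levels are given as normalized CPM, that is counts scaled to a common library size after scaling of the libraries by edgeR's TMM method. Skeletal muscle fiber markers summed to 74536 to 121538 normalized CPM per library in 1wk SBI and 117688 to 140296 in 1wk SBI + Lac. At 3 weeks they summed to 111771 to 153415 in 3wk SBI and 161093 to 184924 in 3wk SBI + Lac, without overlap. Such high levels are what the labelled tissue would give. The part of this difference between groups in the members' values was not tested. In RNA of whole muscle, fewer cells of a type and less RNA per cell cannot be told apart.

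The myogenic regulators of the MyoD family bind E-boxes, the letters CANNTG, and prefer the form CAGCTG in muscle genes, so the stretches upstream of the members' start sites were read from RefSeq (build GRCr8) for the 8 members listed there; Mymk and Cdh2 had no entry. In the 250 bases before the first listed start site, read on both strands, CAGCTG was present in Mymx, Myl4 and Tnnt2, 3 of 8 members, and in 12.0% of all 33469 promoter windows. An E-box of any form, which includes CAGCTG, was in 4 of 8 members and in 65.5% of all windows. The MEF2 motif and the CArG box were in 0 of 8 members and in 2.96% and 1.5% of all windows. The 3 windows with CAGCTG are shown 5′ to 3′ on the gene's strand, with that motif in capitals. They lie at chr9:22894274-22894523 on the plus strand for Mymx, chr10:89975900-89976149 on the plus strand for Myl4 and chr13:49818873-49819122 on the plus strand for Tnnt2.
Mymx: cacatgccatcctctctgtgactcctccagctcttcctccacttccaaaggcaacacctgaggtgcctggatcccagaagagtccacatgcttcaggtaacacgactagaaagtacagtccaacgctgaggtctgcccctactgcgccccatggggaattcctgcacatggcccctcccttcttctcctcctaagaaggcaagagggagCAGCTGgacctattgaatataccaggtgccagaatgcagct
Myl4: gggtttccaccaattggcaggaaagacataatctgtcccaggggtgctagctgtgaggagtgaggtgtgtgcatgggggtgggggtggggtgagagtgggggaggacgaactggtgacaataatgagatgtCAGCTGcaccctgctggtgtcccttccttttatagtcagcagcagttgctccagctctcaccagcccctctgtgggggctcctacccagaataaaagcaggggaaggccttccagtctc
Tnnt2: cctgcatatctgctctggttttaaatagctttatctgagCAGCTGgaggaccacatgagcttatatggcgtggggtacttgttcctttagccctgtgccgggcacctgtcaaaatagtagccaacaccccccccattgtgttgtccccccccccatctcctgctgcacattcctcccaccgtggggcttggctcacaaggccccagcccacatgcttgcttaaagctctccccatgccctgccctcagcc
The motif began 41 bases before the start site in Mymx, 119 in Myl4 and 211 in Tnnt2. These are matches of letters, not measured binding sites.

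Group means of the members fell in one order in 9 of 10 genes: non-lactating at 1 week, lactating at 1 week, non-lactating at 3 weeks and lactating at 3 weeks. The exception was Cdh2, whose mean was higher in 3wk SBI than in 1wk SBI + Lac. The middle neighbours of this order, 1wk SBI + Lac and 3wk SBI, overlapped in 5 of the 10 genes (Myh3, Myh8, Cdh2, Dlk1 and Nes).

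**Figure D1:**
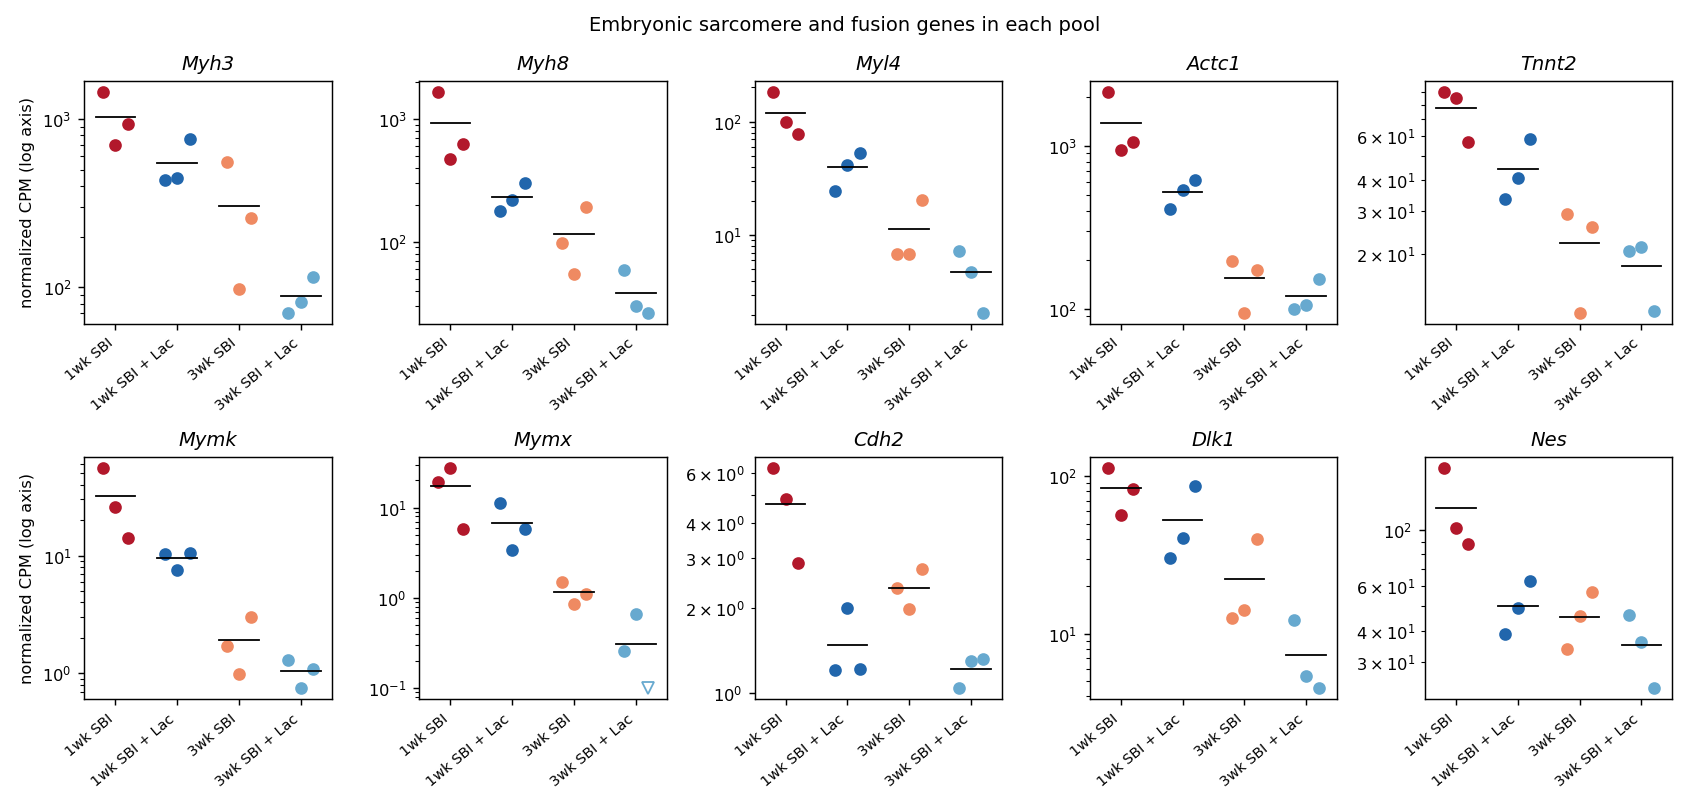
Normalized CPM (log axis) of each of the 10 genes in the 3 pools of each group, 1 point per pool with replicates 1 to 3 from left to right, a black line at the group mean and an open triangle at the bottom of the panel for the pool with 0 Mymx counts. The highest points lie in 1wk SBI for all 10 genes, for example 2137 for Actc1 in replicate 1, and the lowest group mean lies in 3wk SBI + Lac.

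The first comparison asked how the muscle of lactating rats differed from that of non-lactating rats 1 week after SBI. All 10 members were lower with lactation, by 1.61-fold to 3.95-fold, and the median log2 fold change was -1.39 against -0.0038 over all 14599 genes tested, of which 50.5% were lower. Only Cdh2 passed both cutoffs of edgeR's quasi-likelihood test (Benjamini-Hochberg adjusted p under 0.05 and a log2 fold change beyond 1), 1 of 10 members, against 0.164% of all genes called lower. In 6 of 10 members every lactating pool lay below every non-lactating pool, against 14.1% of all genes. An unadjusted p under 0.05 was reached by 8 of the 10, against 18.9% of all genes.

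Among the sarcomere genes, Myh3 encodes the embryonic myosin heavy chain. Myh3 stood at 1445, 705 and 930 normalized CPM in the 1wk SBI pools and at 431, 446 and 764 in the 1wk SBI + Lac pools. The groups overlapped, because the highest lactating pool exceeded the lowest non-lactating one, and the log2 fold change of -0.91 (SE 0.54) had an adjusted p of 0.393 in edgeR.

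Myh8, the perinatal myosin heavy chain, stood at 1662, 473 and 631 in 1wk SBI and at 177, 220 and 303 in 1wk SBI + Lac. The groups did not overlap, but the first non-lactating pool was far above the other 2. The log2 fold change was -1.98 (SE 0.60), the largest of the 10 at this time, and the adjusted p from edgeR was 0.126. With that first pool left out it was -1.24.

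Actc1 encodes cardiac alpha-actin, the main sarcomeric actin of developing skeletal muscle. Its 1wk SBI pools held 2137, 949 and 1057 normalized CPM and its 1wk SBI + Lac pools 412, 538 and 614, with no overlap. The log2 fold change was -1.41 (SE 0.34, adjusted p from edgeR 0.0679).

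Myl4, the embryonic and atrial essential light chain of myosin, was at 182, 99.1 and 77.3 in 1wk SBI and at 24.5, 41.4 and 53.2 in 1wk SBI + Lac. All 3 lactating pools were lower than the lowest non-lactating pool, and the log2 fold change of -1.59 (SE 0.53) had an adjusted p of 0.157 in edgeR. Tnnt2, the troponin T of the heart and of immature skeletal muscle, was at 90.1, 85.6 and 56.7 against 33.4, 40.5 and 58.2. Here the third pools crossed, and the log2 fold change was -0.81 (SE 0.34, adjusted p from edgeR 0.226).

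Actc1, Tnnt2 and Myl4 are also heart genes. The cardiac markers Myh6, Nppa, Myl7, Tnni3 and Ryr2 summed to between 19.2 and 50.8 normalized CPM in 1wk SBI and between 34.2 and 91.4 in 1wk SBI + Lac, and at 3 weeks to between 65.8 and 73.5 in 3wk SBI and between 27.7 and 88.0 in 3wk SBI + Lac. Nearly all of it was Myh6; the other 4 markers together reached at most 0.848, and Myl7 was at 0 in all 12 libraries. The part of heart genes in these values was not tested.

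The fusion genes followed the same order of means. Mymk encodes myomaker, the membrane protein that lets myoblast membranes merge, and stood at 55.6, 25.7 and 14.2 normalized CPM in 1wk SBI and at 10.3, 7.56 and 10.6 in 1wk SBI + Lac. The non-lactating pools spread widely, yet the lowest of them was above the highest lactating pool. The log2 fold change was -1.75 (SE 0.46, adjusted p from edgeR 0.0920), and -1.07 without 1wk SBI replicate 1. Mymx encodes myomixer, the short partner protein needed to complete fusion, and was at 19.2, 27.7 and 5.86 against 11.2, 3.39 and 5.76. These groups overlapped, since the third non-lactating pool was low, and the log2 fold change of -1.38 (SE 0.57) had an adjusted p of 0.228 in edgeR.

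Cdh2 encodes N-cadherin, an adhesion molecule of myoblasts and of the satellite cell niche. It was expressed at a low level, with 6.25, 4.84 and 2.88 normalized CPM in 1wk SBI and 1.21, 2.00 and 1.22 in 1wk SBI + Lac. The groups did not overlap, and Cdh2 was 3.17-fold lower with lactation (log2 fold change -1.67, SE 0.31, adjusted p from edgeR 0.0296). Thinning all libraries to equal depth left the log2 fold change at -1.74 with an adjusted p of 0.0553.

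Nes encodes nestin, an intermediate filament protein of progenitors and of regenerating fibers. Its pools were at 176, 102 and 87.9 in 1wk SBI and at 38.6, 49.0 and 63.0 in 1wk SBI + Lac, without overlap, and the log2 fold change was -1.28 (SE 0.31, adjusted p from edgeR 0.0753). Dlk1, a transmembrane relative of the Notch ligands that is expressed in developing and regenerating muscle, was at 113, 56.7 and 83.6 against 30.3, 40.7 and 86.2. The third lactating pool of Dlk1 exceeded 2 of the 3 non-lactating pools, and the log2 fold change of -0.69 (SE 0.57) was the smallest of the 10 in size (adjusted p from edgeR 0.550).

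The count of called members at 1 week moved with single pools, as did the count over all genes. The members' count was 5 without 1wk SBI replicate 3 (Actc1, Mymk, Mymx, Cdh2 and Nes), where 1.59% of all genes were called in either direction. It was 0 without any one of the other 5 pools compared, where 0.0133% to 0.101% of all genes were called. The edgeR fit with every pool called 0.253% of all genes. DESeq2 called 5 members and 1.35% of all genes in a fit of all 12 libraries. In a fit of the 6 libraries compared it called 6 members and 2.23% of all genes. Replicate 1 of 1wk SBI held the highest value of its group in 9 of the 10 members, and replicate 3 of 1wk SBI + Lac in 8 of 10. Proliferation markers moved the same way: all 5 were lower with lactation, and their summed level was 18.1 to 33.7 normalized CPM in 1wk SBI and 6.03 to 12.3 in 1wk SBI + Lac. Their part in the members' difference was not tested.

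**Figure D2:**
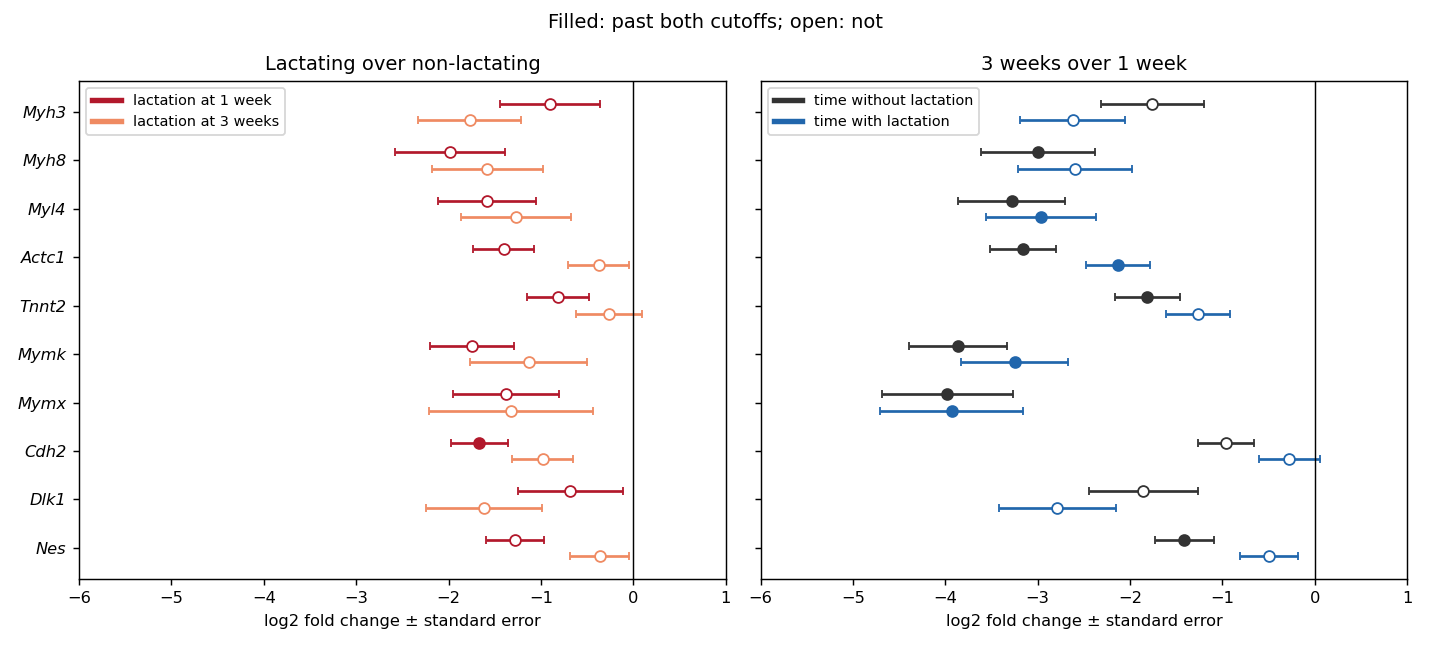
Log2 fold change with its standard error for each gene, lactating over non-lactating at 1 and 3 weeks (left) and 3 weeks over 1 week without and with lactation (right), from 1 edgeR quasi-likelihood fit of all 12 libraries. Filled points passed both cutoffs: Cdh2 on the left, and 7 genes without and 4 with lactation on the right, while every point lies below 0.

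The same question was asked 3 weeks after SBI. All 10 members were again lower with lactation, by 1.20-fold to 3.42-fold, with a median log2 fold change of -1.20 against -0.019 over all genes tested, of which 52.3% were lower. Without 3wk SBI replicate 3 the members' median was -0.61. None of the 10 passed both cutoffs in edgeR, against 0.534% of all genes called lower. An unadjusted p under 0.05 was reached by 4 of the 10, against 21.1% of all genes. DESeq2 called 1 member (Myh3) in a fit of all 12 libraries, where 1.78% of all genes were called in either direction. In a fit of the libraries compared it called 0 members and 1.36% of all genes. The edgeR fit called 0.74% of all genes in either direction. In 3 of 10 members the pools did not overlap, against 10.4% of all genes.

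Myh3 stood at 557, 97.5 and 258 normalized CPM in the 3wk SBI pools and at 70.7, 81.4 and 116 in the 3wk SBI + Lac pools. The non-lactating pools differed among themselves by more than the group means did, and the second of them lay within the lactating range. The log2 fold change was -1.77 (SE 0.56, adjusted p from edgeR 0.114), and without 3wk SBI replicate 2 it was -2.19 and passed both cutoffs with an adjusted p of 0.0228. Without 3wk SBI replicate 1 it was -1.01.

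Myh8 was at 97.6, 55.0 and 192 in 3wk SBI and at 58.5, 29.8 and 26.5 in 3wk SBI + Lac, with a slight overlap (log2 fold change -1.58, SE 0.60, adjusted p from edgeR 0.172, and -0.97 without 3wk SBI replicate 3). Myl4 was at 6.87, 6.81 and 20.4 against 7.33, 4.72 and 2.09, so that its difference came mostly from the third non-lactating pool. Its log2 fold change was -1.27 (SE 0.59, adjusted p from edgeR 0.262), and -0.41 without that pool.

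Among the sarcomere genes, Actc1 and Tnnt2 showed the smallest differences at 3 weeks. Actc1 was at 195, 94.6 and 174 normalized CPM in 3wk SBI and at 100, 106 and 152 in 3wk SBI + Lac, and Tnnt2 at 29.1, 11.6 and 25.6 against 20.6, 21.4 and 11.8. Both genes overlapped between the groups, with log2 fold changes of -0.38 (SE 0.33) and -0.26 (SE 0.35) and adjusted p-values from edgeR of 0.548 and 0.712.

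The fusion genes were at low levels at 3 weeks. Mymk was at 1.72, 0.991 and 3.02 normalized CPM in 3wk SBI and at 1.30, 0.748 and 1.10 in 3wk SBI + Lac, with overlapping pools (log2 fold change -1.13, SE 0.63, adjusted p from edgeR 0.338, and -0.37 without 3wk SBI replicate 3). Mymx was at 1.5, 0.867 and 1.10 against 0.261 and 0.667 in the first 2 lactating pools and 0 counts in the third, where a count of 0 allows a level of up to 0.330. Its groups did not overlap, and the log2 fold change of -1.33 (SE 0.88) had an adjusted p of 0.426 in edgeR and became -2.48 without 3wk SBI + Lac replicate 2.

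Of the progenitor genes, Cdh2 stood at 2.36, 1.98 and 2.74 in 3wk SBI and at 1.04, 1.30 and 1.32 in 3wk SBI + Lac. The pools did not overlap, and the log2 fold change of -0.98 (SE 0.33) had the smallest adjusted p of the 10 from edgeR, 0.110. Dlk1 was at 12.7, 14.1 and 40.1 against 12.1, 5.38 and 4.51, without overlap, though its first pools in the 2 groups were close (log2 fold change -1.62, SE 0.63, adjusted p from edgeR 0.186). Without the third non-lactating pool it was -0.81. Nes was at 33.9, 45.6 and 56.7 against 45.9, 35.9 and 23.6, with overlap (log2 fold change -0.36, SE 0.32, adjusted p from edgeR 0.545).

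Proliferation markers were again lower in 5 of 5 genes, with a summed level of 3.53 to 16.0 in 3wk SBI and 1.87 to 3.48 in 3wk SBI + Lac, and their part in the members' values was not tested. The highest of these sums was that of 3wk SBI replicate 3, which also held the highest value of its group in 6 of the 10 members and the highest sums of fibroblast markers (6464 against 2883 and 2982) and macrophage markers (320 against 159 and 169) among the 3wk SBI pools. Whether the lactation effect itself changed between 1 and 3 weeks was tested as an interaction. None of the 10 members was called, against 0.00685% of all genes, with an adjusted p from edgeR of 0.999 for all 10. DESeq2 called 0 members, against 0.055% of all genes. Only Actc1 had an unadjusted p under 0.05 in edgeR (0.0486), 1 of 10 members, against 4.42% of all genes. Its log2 difference of 1.03 corresponds to a smaller lactation effect at 3 weeks, and was 0.57 without 1wk SBI replicate 1. The effects at the 2 times are therefore not shown to differ.

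Because the developmental isoforms work beside adult paralogs in the same filament, their share of the counts of each paralog set was taken. This share does not depend on library scaling, but it is not corrected for transcript length, it moves when either part moves, and reads of near-identical paralogs such as the myosins and actins may be divided between them uncertainly. The set for Myh3 and Myh8 comprised Myh2, Myh3, Myh4, Myh7 and Myh8. Myh1, an adult myosin planned for this set, has no row under that symbol in the deposited counts. It is therefore missing from the total, and the shares are not of all myosin heavy chain counts. With 3 pools against 3, the smallest two-sided exact permutation p is 0.1, so the shares are given without a test.

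Myh3 made up 3.85%, 2.27% and 1.92% of the counts of this myosin heavy chain set in the 1wk SBI pools and 0.761%, 0.740% and 1.62% in the 1wk SBI + Lac pools. Unlike the normalized level, the share of Myh3 did not overlap between the groups. Myh8 made up 4.43%, 1.52% and 1.30% against 0.313%, 0.365% and 0.643%, also without overlap.

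Actc1 took 7.69%, 3.90% and 2.65% of the counts of Actc1 and Acta1, the adult skeletal actin, in 1wk SBI and 0.951%, 1.25% and 1.57% in 1wk SBI + Lac. Myl4 took 2.23%, 1.48% and 0.799% of the essential light chain counts (with Myl1 and Myl3) against 0.263%, 0.396% and 0.610%. Neither overlapped, whereas Tnnt2, at 1.27%, 1.32% and 0.609% of the troponin T counts (with Tnnt1 and Tnnt3) against 0.316%, 0.358% and 0.627%, overlapped narrowly.

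At 3 weeks the Myh3 share was 1.08%, 0.160% and 0.606% in 3wk SBI and 0.102%, 0.123% and 0.203% in 3wk SBI + Lac. The Myh8 share was 0.189%, 0.0905% and 0.450% against 0.0842%, 0.0451% and 0.0465%, the only one of the 5 shares without overlap at this time. Actc1 lay at 0.194% to 0.443% against 0.156% to 0.245%, Tnnt2 at 0.0963% to 0.258% against 0.0823% to 0.165%, and Myl4 at 0.0616% to 0.199% against 0.0171% to 0.0810%.

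The ratio of Myh8 to Myh3 counts compares the perinatal with the embryonic myosin. It was 1.15, 0.670 and 0.678 in 1wk SBI and 0.411, 0.493 and 0.396 in 1wk SBI + Lac, without overlap. At 3 weeks it scattered, with 0.175, 0.565 and 0.742 in 3wk SBI and 0.827, 0.366 and 0.229 in 3wk SBI + Lac, so the groups were not separated. Other ratios of members were also taken. Counts of Actc1 per Myh3 were 1.48, 1.35 and 1.14 in 1wk SBI and 0.955, 1.21 and 0.803 in 1wk SBI + Lac, overlapping. At 3 weeks they were 0.350, 0.971 and 0.673 in 3wk SBI and 1.42, 1.30 and 1.31 in 3wk SBI + Lac, without overlap. Mymx per Mymk overlapped at both times.

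**Figure D3:**
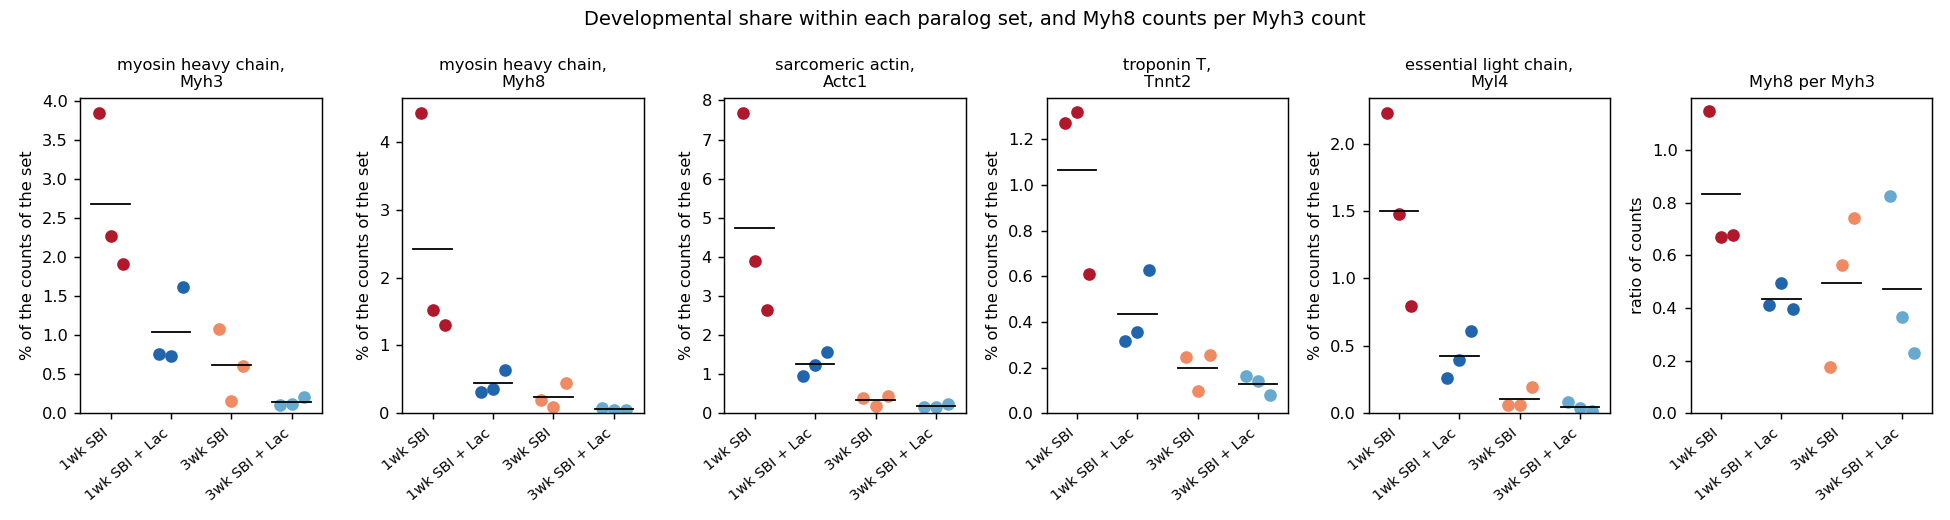
Share of each developmental gene in the counts of its paralog set (percent, linear axes from 0) and Myh8 counts per Myh3 count, in each of the 12 pools, with a black line at the group mean. In 1wk SBI the shares reach 3.85% for Myh3 and 7.69% for Actc1, and in 3wk SBI + Lac they stay at or under 0.245% in all 5 sets.

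Levels at 3 weeks were then set against those at 1 week. These comparisons share their libraries with the lactation comparisons. Without lactation, all 10 members were lower at 3 weeks and none overlapped, against 11.4% of all genes lower without overlap. In edgeR 7 of 10 passed both cutoffs (Myh8, Myl4, Actc1, Tnnt2, Mymk, Mymx and Nes), against 1.1% of all genes called lower.

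The largest decreases were those of the fusion genes. Mymx was 15.8-fold lower (log2 fold change -3.98, SE 0.71, adjusted p from edgeR 0.0149) and Mymk 14.6-fold lower (-3.86, SE 0.53, adjusted p 0.00642). Of the sarcomere genes, Myl4 was 9.72-fold, Actc1 8.95-fold, Myh8 7.98-fold and Tnnt2 3.51-fold lower, with adjusted p-values from edgeR of 0.0171, 0.00185, 0.0287 and 0.0192.

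Myh3, the embryonic myosin, did not pass, with a log2 fold change of -1.76 (SE 0.55, adjusted p from edgeR 0.106). Its first 3-week pool was at 557 normalized CPM, and without that pool it passed, at -2.52 with an adjusted p of 0.0361. Nes was 2.66-fold lower (adjusted p from edgeR 0.0312). Cdh2 (log2 fold change -0.96) and Dlk1 (-1.86) had adjusted p-values of 0.0822 and 0.116.

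With lactation, 10 of 10 members had lower means at 3 weeks and 8 did not overlap, against 14.7% of all genes. In edgeR 4 of 10 passed both cutoffs, against 0.685% of all genes called lower. Mymx was 15.2-fold lower (log2 fold change -3.93, SE 0.77, adjusted p from edgeR 0.0360) and Mymk 9.51-fold lower (-3.25, SE 0.58, adjusted p 0.0268).

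Myl4 was 7.80-fold lower (adjusted p from edgeR 0.0443) and Actc1 4.39-fold lower (adjusted p 0.0126). Myh3, Myh8 and Dlk1 had log2 fold changes of -2.62, -2.60 and -2.79 with adjusted p-values from edgeR of 0.0517, 0.0669 and 0.0633. Tnnt2 was at -1.26 (adjusted p 0.0952). Nes at -0.50 and Cdh2 at -0.28 overlapped between the time points, and Cdh2 turned to 0.27 when the libraries were thinned to equal depth.

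Both counts moved with single pools, as did the counts over all genes. Without lactation the members' count was 9 and 8 in the DESeq2 fits of all 12 libraries and of those compared. These fits called 2.27% and 2.05% of all genes in either direction, against 1.46% in the edgeR fit. The members' count fell to 2 without 1wk SBI replicate 1, to 4 without 1wk SBI replicate 2 and to 3 without 3wk SBI replicate 2. Of all genes, 0.414%, 0.698% and 0.5% were called in the same order. With lactation the members' count was 0 to 2 without any one of the 6 pools. Those fits called 0.182% to 0.513% of all genes, against 0.774% in the edgeR fit. The members' count was 8 in both DESeq2 fits, which called 1.73% and 1.83% of all genes. Actc1 was the gene called most often, in 3 of the 6 fits that left out a pool. Of the called log2 fold changes without lactation, those of Myh8 and Mymk were -2.26 and -3.22 without 1wk SBI replicate 1, and those of Myh8, Myl4 and Mymk were -3.60, -4.13 and -4.64 without 3wk SBI replicate 3. With lactation Mymx was at -5.09 without 3wk SBI + Lac replicate 2.

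Other genes of the pathway were taken from 4 lists: 18 myogenic regulators and satellite cell genes, 29 other fusion genes, 21 other genes that regenerating muscle expresses, and 20 adult sarcomere genes. Of these, 18, 23, 19 and 18 were tested. At 1 week 0 genes of the 4 lists passed both cutoffs in edgeR, while 5, 6, 8 and 13 had an unadjusted p under 0.05, beside the 18.9% of all genes. The median log2 fold changes with lactation were -0.13, -0.14, -0.17 and 0.49 in the same order, beside -1.39 for the 10 members.

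Among the myogenic regulators, 10 of 18 were lower, and Megf10, a receptor of satellite cells, had the smallest adjusted p from edgeR (log2 fold change -1.14, SE 0.27, adjusted p 0.0632). Of the other fusion genes 16 of 23 were lower, with the smallest adjusted p in Myof, a membrane repair and fusion protein (-0.69, SE 0.19, adjusted p 0.0926). Of the other regeneration genes 12 of 19 were lower, and the smallest adjusted p belonged to a gene that was higher, Xirp2, an actin-binding protein (0.73, SE 0.20, adjusted p 0.0804). All 18 adult sarcomere genes were higher, the smallest adjusted p being that of the M-band protein gene Myom1 (0.49, SE 0.17, adjusted p 0.140).

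At 3 weeks lactation was accompanied by 11 of 18, 18 of 23, 11 of 19 and 1 of 18 lower genes in these lists, beside 52.3% of all genes. Megf10 fell (log2 fold change -1.19, SE 0.29, adjusted p from edgeR 0.0458), from 8.80, 4.58 and 10.7 normalized CPM in 3wk SBI to 4.30, 3.71 and 2.20 in 3wk SBI + Lac. Mest, an imprinted gene of developing mesoderm, also fell (-1.67, SE 0.38, adjusted p 0.0496), from 10.2, 13.6 and 22.3 to 5.37, 4.80 and 4.84. Neither gene overlapped between the groups, against 10.4% of all genes lower without overlap, and both lay just inside the cutoff. Each was the only called gene of its list (1 of 18 and 1 of 19), against 0.534% of all genes called lower. An unadjusted p under 0.05 in edgeR was reached by 6, 6, 5 and 2 genes of the 4 lists, beside 21.1% of all genes. No gene of the other fusion list or the adult sarcomere list passed both cutoffs. The smallest adjusted p-values from edgeR there were those of the surface co-receptor gene Cdon (-0.67, adjusted p 0.0704) and of muscle creatine kinase, Ckm (0.53, adjusted p 0.196).

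Between 1 and 3 weeks without lactation, 17 of the 19 other regeneration genes were lower, 14 of the 19 had an unadjusted p under 0.05, against 21.2% of all genes, and 8 fell past both cutoffs in edgeR, against 1.1% of all genes called lower. The largest decreases among them were in Chrna1 and Chrnd, subunits of the muscle acetylcholine receptor, at -3.37 (SE 0.57, adjusted p from edgeR 0.0150) and -3.00 (SE 0.39, adjusted p 0.00536), and in the stress-responsive titin-binding gene Ankrd1, at -2.76 (SE 0.28, adjusted p 0.00145). Of the adult sarcomere list Myl2, the slow regulatory light chain, rose (1.09, SE 0.27, adjusted p 0.0335). No gene of the remaining 2 lists passed both cutoffs in edgeR, with 6 in each at an unadjusted p under 0.05; Myog, at -0.91 with an adjusted p of 0.0176, and Nfatc2, at 0.72 with 0.0151, missed the cutoff on size.

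With lactation 17 of the 19 were again lower, 15 had an unadjusted p under 0.05, against 18.1% of all genes, and 6 fell past both cutoffs, against 0.685% of all genes called lower. Among these were Chrnd (-2.42, SE 0.38, adjusted p from edgeR 0.0145), Ankrd1 (-2.24, SE 0.28, adjusted p 0.00364) and Mustn1, a small nuclear protein gene of regenerating muscle (-2.11, SE 0.34, adjusted p 0.0145). No gene of the other 3 lists passed both cutoffs in edgeR, with 4, 6 and 6 at an unadjusted p under 0.05 among the myogenic regulators, the other fusion genes and the adult sarcomere genes. The smallest adjusted p-values there were 0.111 for Myog (-0.62), 0.0390 for the membrane repair gene Dysf (-0.48) and 0.162 for Acta1 (0.61).

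**Figure D4:**
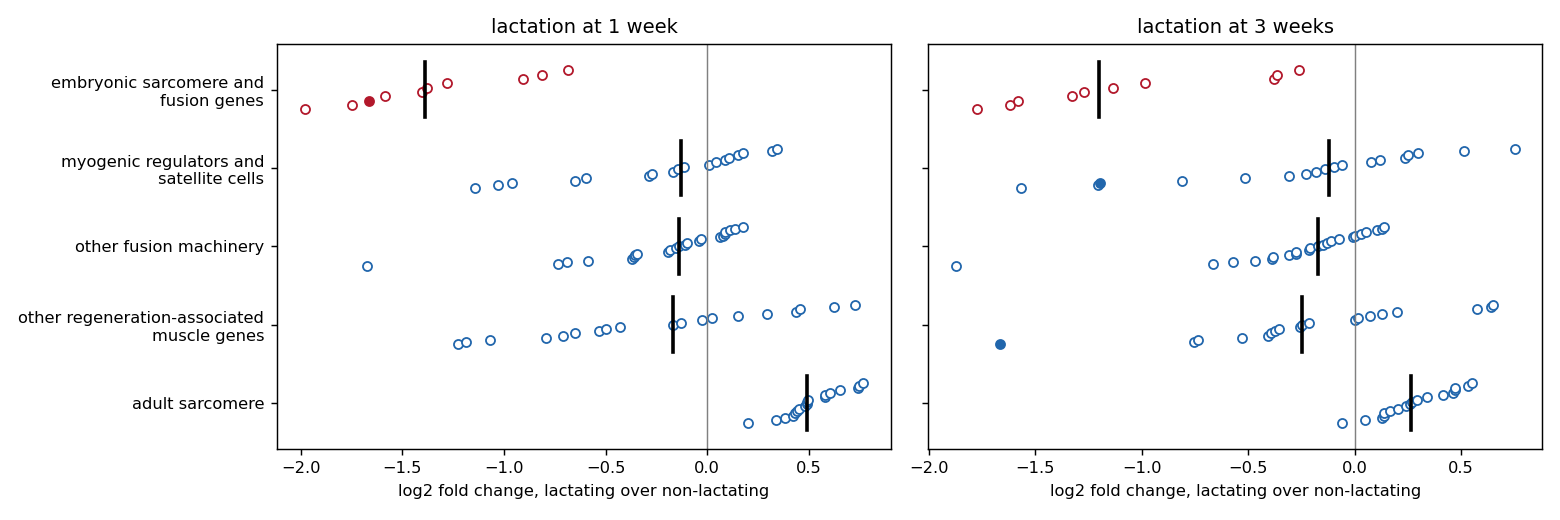
Log2 fold change of lactating over non-lactating rats at 1 week (left) and 3 weeks (right) for each tested gene of the members and of the 4 lists, 1 point per gene, filled where it passed both cutoffs, with a black line at the median. At 1 week the members' median is -1.39 and that of the adult sarcomere genes 0.49, and at 3 weeks they are -1.20 and 0.26.

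The members varied together across the libraries. Over the 45 pairs of members, Pearson's r of log2 CPM across the 12 libraries ran from 0.591 to 0.974 with a median of 0.863, and after the group means were removed from -0.185 to 0.916 with a median of 0.481. All these libraries share the 4 groups, so the first set of values mostly describes the order of the groups. The mean z-score of the members was highest in 1wk SBI (1.65, 1.11 and 0.88 in its pools) and lowest in 3wk SBI + Lac (-0.90, -1.03 and -1.33). The pools of 1wk SBI + Lac (0.08, 0.26 and 0.50) and of 3wk SBI (-0.35, -0.80 and -0.07) lay between them without overlapping.

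Of all other tested genes with a symbol, the 5 whose level was most like this mean over the 12 libraries were Klhl2 (r of 0.982), the ribosomal protein gene Rpl3 (0.981), Fndc3c1 (0.980), Map6d1 (0.979) and Gatm (0.976), a creatine synthesis enzyme. With group means removed their r was 0.906, 0.910, 0.900, 0.789 and 0.761, and other genes ranked above them, first Fam168a (0.952).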

How the data were processed

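PolyA RNA of pubocaudalis muscle was sequenced from stranded libraries, each of RNA pooled from 2 rats. The authors deposited 1 table of counts per gene without normalization. The 1-week values are counts, and the deposited 3-week values hold decimals of the kind expected counts have, and were rounded here, although whole counts had been planned for. Salmon is named in the submitters' processing notes, with no version; genome build and annotation are not given in the sources used here, and 4319 of 30206 genes have no symbol.

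Counts were scaled by TMM, filtered by filterByExpr and tested in edgeR 4.0.16 (R 4.3.3, limma 3.58.1) with 1 robust quasi-likelihood fit of 4 groups and 12 libraries, on the cutoffs 0.05 for the Benjamini-Hochberg adjusted p over all 14599 genes and 1 for the absolute log2 fold change. DESeq2 1.42.0, the study's tool, was an alternative, with other scalings, filters, thinned libraries, unrounded values, a replicate block and each library left out. Log2 CPM used a prior count of 2. The fit was also run on data simulated from its own means and spreads, for the lactation comparison at 1 week only. No outlying pools were added there, so that run cannot show how single pools move the counts. Members and gene lists were chosen with earlier results of these data known. All members were named. Of each list at most 3 called genes with the largest change per comparison were named. With none called, the gene with the smallest adjusted p was named. The 5 genes with a symbol that were most like the members' mean z-score were named too.

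Counts of pools in one group differed beyond sampling noise (chi-square over its degrees of freedom from 20.8 to 95.3) and are labelled as different rats, so they were taken as separate samples. The study describes the pools of a group as technical replicates, and p-values measure only the spread between pools. A 95% Wilson interval of a member's paralog share reached at most 46.1% of the share to either side, for counting error only, and a count of 0 was read as up to 3 counts.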

Additional observations from a re-analysis of the deposited data

How the results depend on the processing

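In both lactation comparisons the 10 members kept a negative log2 fold change under every alternative run. The count of called members at 1 week, 1 in the reported fit, was 0 with the replicate block and 0 at equal depth, 5 with DESeq2 on all 12 libraries and 6 with DESeq2 on those compared, and 0 to 5 with 1 library left out (5 without 1wk SBI replicate 3, 0 without any other). At 3 weeks the count of 0 became 1 with DESeq2 on all 12 libraries and was 0 to 1 with 1 library left out (1 without 3wk SBI replicate 2). Of all genes at 1 week, the reported fit called 0.253% in either direction, the replicate block 0.0548% and equal depth 0.335%. DESeq2 called 1.35% and 2.23%, and fits with 1 library left out 0.0133% to 1.59%. At 3 weeks the share was 0.74%, 1.78% with DESeq2 on all 12 libraries and 0.146% to 1.05% with 1 library left out. The count of 7 for time without lactation was 2 to 8 with 1 library left out. Those fits called 0.414% to 3.75% of all genes, against 1.46% in the reported fit. The count of 4 for time with lactation was 1 without a low-count filter, 1 at equal depth, 8 in both DESeq2 fits and 0 to 2 with 1 library left out. For time with lactation the reported fit called 0.774% of all genes, against 0.454% without a low-count filter and 0.646% at equal depth. The share was 1.73% and 1.83% in the DESeq2 fits and 0.182% to 0.513% with 1 library left out. The cause of these shifts was not tested. Deviations of same-numbered pools had correlations from -0.233 to 0.2. Differently numbered pools were not compared, so these values do not decide whether the numbers pair the pools. The replicate block left the other counts within 1.5 times. The change of the lactation effect had no called member under any alternative; for Mymx it turned to -0.51 with the replicate block and -0.32 with DESeq2 on all 12 libraries, and with 1 library left out it ran from -1.11 to 0.61 for Mymx, -0.34 to 1.00 for Myh8, -0.12 to 1.17 for Myl4 and -0.019 to 1.38 for Mymk. Cdh2 for time with lactation turned to 0.27 at equal depth. Shares per coding length were not run, since no lengths were used here. The shallowest library, of 10082734 counts, limits what can be seen of Mymk, Mymx and Cdh2 at 3 weeks.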

Other observations

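Markers of other cell types differed in how they stood beside the members. Fibroblast and fibro-adipogenic markers were lower with lactation in 5 of 6 genes at 1 week and 5 of 6 at 3 weeks, and their summed level was 5805 to 8327 normalized CPM in 1wk SBI, 3512 to 6441 in 1wk SBI + Lac, 2883 to 6464 in 3wk SBI and 1771 to 2556 in 3wk SBI + Lac. Macrophage markers were lower in 4 of 5 and 5 of 5 genes, with sums of 224 to 259, 171 to 233, 159 to 320 and 150 to 175 in the same order. In edgeR 1 of the 5 was called lower at 3 weeks, against 0.534% of all genes. Of all genes tested, 50.5% were lower with lactation at 1 week and 52.3% at 3 weeks. Endothelial markers (251 to 358 over the 12 libraries), Schwann cell markers (64.3 to 239) and adipocyte markers (22.9 to 52.3) overlapped between lactating and non-lactating rats at both times. The smooth muscle and pericyte list was dominated by Des, the desmin gene, which skeletal muscle fibers also express (3586 to 4484 in 1wk SBI and 4584 to 4668 in 1wk SBI + Lac). The other 6 genes of that list summed to 281 to 344 in 1wk SBI and 327 to 339 in 1wk SBI + Lac, and to 206 to 346 and 267 to 333 at 3 weeks, with overlap at both times.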
